A study of Mus musculus with 6 samples.

Results

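Loss of Ezh2 was examined in mouse embryonic fibroblasts that lack the Ink4a/Arf locus. The comparison uses 4 of the 6 arrays of the series, chosen by their titles: 2 arrays of Ink4a/Arf-/- cells labelled Ezh2 -/- and 2 arrays of Ink4a/Arf-/- cells labelled Ezh2 fx/fx. All 4 arrays share the Ink4a/Arf deletion, so the genotypes differ, as labelled, in Ezh2. The cells were embryonic fibroblast lines of the Ola129 strain, kept on gelatin in medium with serum and leukemia inhibitory factor and collected during exponential growth, per the labels' protocols. The titles name genotypes, whereas the series text speaks of cells collected 48 hours after they received esiRNA against Ezh2 or a control, and the titles, which also head the data columns, set the groups here. No source used here says how the floxed allele was deleted or whether the replicates were grown separately. The p-values below then measure only the spread between these arrays, which may be technical. The other 2 arrays of the series, 1 Ezh2 -/- and 1 Ezh2 fx/fx in Ink4a/Arf+/+ cells, share no array with this comparison and are set beside it where stated.

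Ezh2 is the catalytic subunit of Polycomb repressive complex PRC2, which methylates lysine 27 of histone H3 and keeps many developmental genes silent. In fibroblasts PRC2 also acts at Ink4a/Arf (Cdkn2a), a locus for a brake on the cell cycle kinases and for a protein that frees p53 from Mdm2, and loss of Ezh2 is known to switch that locus on. Cells without Ink4a/Arf cannot make these proteins, so the comparison asks which transcripts differ with Ezh2 when this route is missing.

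The table holds log2 levels of 23346 probe sets under 20723 gene symbols. The array medians were 8.27 and 8.264 in Ezh2 -/- cells and 8.321 and 8.246 in fx/fx cells. Replicate 1 of the fx/fx cells stood apart from the other 3 arrays. The first principal component held 50.1% of the variance and placed that array at 21.16 and the others between -7.546 and -6.484. Its level lay above that of fx/fx replicate 2 by a median of 0.0845 over all probe sets. The SD of the log2 differences was 0.1397 between the Ezh2 -/- replicates and 0.1894 between the fx/fx replicates, and it lay between 0.1607 and 0.1952 across genotypes. The spread across genotypes was thus close to that between the fx/fx replicates, and medians without fx/fx replicate 1 are given beside the gene lists below. The number of arrays limits the precision throughout.

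Limma, fitted to the 4 arrays with a Benjamini-Hochberg adjustment over all probe sets, called 0 of 23346 probe sets at an adjusted p below 0.05 (0%). At an unadjusted p below 0.05 there were 654 higher (2.8%) and 963 lower (4.12%) probe sets in Ezh2 -/- cells. On 3035 probe sets (13%) both Ezh2 -/- arrays lay above both fx/fx arrays, and on 5518 (23.6%) both lay below. The excess of lower probe sets went with fx/fx replicate 1. The median difference over all genes was -0.025 with it and 0.019 without it, and leaving it out turned the counts at an unadjusted p below 0.05 to 1573 higher and 977 lower. Quantile normalization of the 4 arrays gave 1178 higher and 939 lower. Other settings called few probe sets: 38 with a trend of variance on level, 4 without the dimmest 30% of probe sets, 13 without fx/fx replicate 2 and 5 without Ezh2 -/- replicate 2. Since 0 passed in the fit as described, the genes below are described by their values, by the gap between the groups (the lowest array of the higher group minus the highest array of the lower group) and by their counts beside those over all genes.

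Levels of both targeted genes come before the rest. For Ezh2 they were 10.62 and 10.51 in Ezh2 -/- cells and 10.92 and 10.91 in fx/fx cells, a log2 difference of -0.35 ± 0.08 (SE, n = 2 per genotype; limma, adjusted p = 0.577). The groups did not overlap, and the difference stayed between -0.40 and -0.30 when any 1 array was left out. Cdkn2a read 8.115 and 8.1995 in Ezh2 -/- cells and 8.292 and 8.179 in fx/fx cells, and these groups overlapped. Probe positions relative to either deletion are not known here, so neither level checks a label. Among the other PRC2 subunits measured, Mtf2, which helps PRC2 bind unmethylated CpG-rich DNA, differed by -0.19 and the core subunit Suz12 by -0.10, both without overlap. Jarid2, an accessory subunit, was higher by 0.14 without overlap. The core subunit Eed read 9.83 and 9.84 in Ezh2 -/- cells and 9.42 and 9.92 in fx/fx cells, so its difference of 0.16 came from fx/fx replicate 1 and was -0.09 without it. In the partner complex PRC1, Bmi1, a subunit that also represses Ink4a/Arf, averaged 10.34 in Ezh2 -/- cells and 10.05 in fx/fx cells, and the groups did not overlap. All other PRC1 subunits measured differed by less than Bmi1, whose difference was 0.29 (0.24 without fx/fx replicate 1; limma, adjusted p = 0.621).

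The 15 genes with the widest upward gap included cell surface, secreted and signalling genes. Cd80, a ligand that costimulates T cells, read 10.31 and 10.32 in Ezh2 -/- cells and 9.42 and 9.35 in fx/fx cells. The replicates nearly coincided, and the difference of 0.93 ± 0.07 (SE) is 1.91-fold (limma, adjusted p = 0.258). A separate probe set of Cd80 was higher by 0.50 without overlap. Serpine2, an inhibitor of thrombin and plasminogen activators, read 9.81 and 9.82 in Ezh2 -/- cells and 9.06 and 9.03 in fx/fx cells. Fabp7, a fatty acid binding protein of glia and their precursors, read 9.95 and 9.90 in Ezh2 -/- cells and 9.17 and 9.16 in fx/fx cells. These genes were picked for their gap, so a distance between groups above that within them follows from the choice.

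Chemokine ligands stood in the same group. Cxcl10, an interferon-induced attractant of T cells, read 9.63 and 9.64 in Ezh2 -/- cells and 8.88 and 8.82 in fx/fx cells, a difference of 0.78. Ccl17, a ligand of the receptor Ccr4, read 9.35 and 9.34 in Ezh2 -/- cells and 8.65 and 8.55 in fx/fx cells, a difference of 0.75. Both chemokines were picked for their gap, so their lack of overlap follows from the choice. Rgs4, which speeds the switching off of G proteins, was higher by 0.74, with 10.48 and 10.49 in Ezh2 -/- cells and 9.81 and 9.69 in fx/fx cells. Matrix genes were Col10a1, the collagen of hypertrophic cartilage, at 0.69 and Prg4, the lubricant of joints, at 0.66. The p53 targets among the 15 were Trp53inp1 at 0.71, the microtubule gene Psrc1 at 0.68 and the receptor Eda2r at 0.67. The remaining genes were the anoctamin Ano3 at 1.30, the testis gene Tcp10b at 1.87, the cytokine Il22 at 1.45 and the fibronectin-domain gene Fndc3c1 at 0.85. Their replicates were less even. On its brighter probe set Ano3 differed by 0.46, without overlap. Tcp10b read 6.36 and 5.38 in Ezh2 -/- cells and 4.25 and 3.75 in fx/fx cells, and its brighter probe set differed by -0.12. Il22 read 7.31 and 6.32 in Ezh2 -/- cells and 5.30 and 5.43 in fx/fx cells, and its other probe set differed by 0.045, with overlap. Limma's adjusted p for the 15 genes lay between 0.258 and 0.570.

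**Figure D1:**
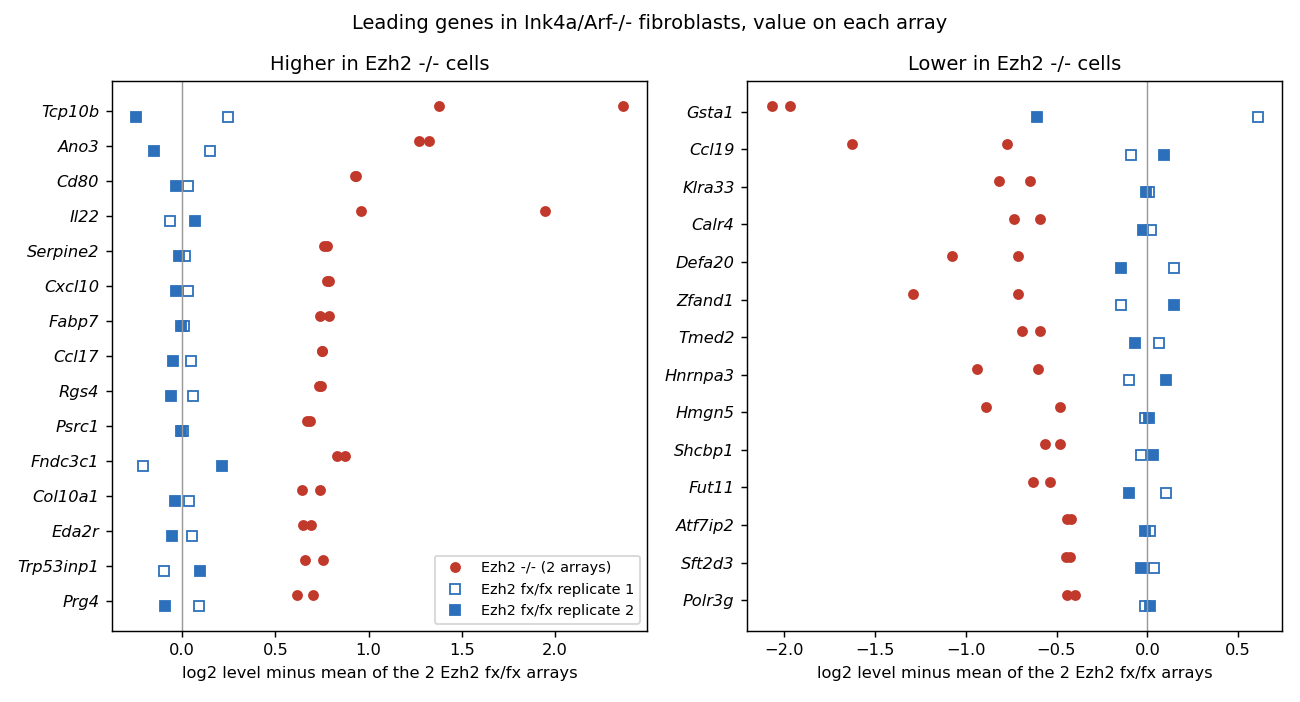
Log2 level of the 15 higher and the first 14 lower genes by gap on each of the 4 Ink4a/Arf-/- arrays, as the distance from the mean of the 2 Ezh2 fx/fx arrays (horizontal axis, log2). Filled circles are Ezh2 -/- arrays, open squares fx/fx replicate 1 and filled squares fx/fx replicate 2. Cd80, Serpine2, Cxcl10 and Fabp7 show replicates that lie close together, with differences between 0.76 and 0.93, while Tcp10b, Il22, Gsta1 and Ccl19 show wide spread within a genotype.

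The 15 genes with the widest downward gap rested on dimmer probe sets, with a median log2 level of 6.27, against 9.24 for the higher 15 and 8.278 over all probe sets. Among them were nuclear and growth-related genes with moderate signal. Hmgn5, a nucleosome-binding protein that loosens chromatin, read 7.63 and 7.22 in Ezh2 -/- cells and 8.10 and 8.12 in fx/fx cells, a difference of -0.68. Shcbp1, a protein of the dividing cell's midbody, read 8.45 and 8.53 in Ezh2 -/- cells and 8.98 and 9.04 in fx/fx cells, a difference of -0.52. Polr3g, a subunit of RNA polymerase III, read 8.49 and 8.53 in Ezh2 -/- cells and 8.92 and 8.94 in fx/fx cells, a difference of -0.42. These 3 genes have 1 probe set each, and their lack of overlap follows from the choice by gap.

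Several other lower genes were not matched by their own brighter probe sets. Tmed2, a cargo receptor of the early secretory pathway, differed by -0.64 on a dim probe set and by -0.07 and -0.05 on its brighter ones. Hnrnpa3, an RNA-binding protein with 6 probe sets, differed by -0.77 on 1 of them and between -0.46 and 0.025 on the other 5. Zfand1, a zinc finger gene, differed by -0.9998 and by -0.095 on its brighter probe set, and Ccl19, a chemokine of lymphoid organs, by -1.20 on 1 probe set and between -0.24 and -0.01 on its other 3. Fut11, a fucosyltransferase family member, differed by -0.58 on a dim probe set and by -0.19 on a brighter one, Sft2d3 by -0.44 and -0.03, and the defensin Defa20 by -0.89 and -0.12. Differences of such genes cannot be assigned to the whole transcript. Gsta1, a glutathione transferase, had the widest gap, with 3.73 and 3.63 in Ezh2 -/- cells and 6.30 and 5.09 in fx/fx cells, all at or below the 30th percentile of signal. Klra33, of the Ly49 receptor family, differed by -0.73, Calr4 by -0.66 and Atf7ip2, a partner of histone methyltransferases, by -0.43. The brighter probe set of Atf7ip2 differed by -0.18. Limma's adjusted p for the lower 15 lay between 0.372 and 0.577.

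The 2 Ink4a/Arf+/+ arrays allowed the direction of these genes to be read in cells that keep the locus, with 1 array per genotype and no replicate check. Of the 15 higher genes, 14 were also higher on the Ink4a/Arf+/+ array labelled Ezh2 -/-, where 50.1% of all probe sets were higher, and 9 were at least 2-fold higher there, beside 0.797% of all probe sets. Fabp7 differed by 2.27, Ano3 by 1.69, Ccl17 by 1.58, Serpine2 by 1.499 and Cd80 by 1.42 in that background. Il22 was the exception, at -1.09. Cxcl10 barely differed, at 0.04, and read 5.42 in Ezh2 -/- and 5.38 in fx/fx cells with Ink4a/Arf. Of the 15 lower genes, 9 were also lower in Ink4a/Arf+/+ cells, beside 48.1% of all probe sets, and 1, Klra33 at -1.33, was at least 2-fold lower, beside 0.313%. Shcbp1 at -0.50, Hmgn5 at -0.50 and Polr3g at -0.42 had the same sign in both backgrounds. The difference between the backgrounds was also put through limma over all 6 arrays, taking the spread of the lone arrays to be that of the replicates. That spread comes wholly from the Ink4a/Arf-/- arrays, so the test holds no replicate check of the Ink4a/Arf+/+ difference. Under it 95 of 23346 probe sets (0.407%) passed an adjusted p below 0.05, and of the 30 genes Fabp7 did (adjusted p = 0.0237).

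**Figure D2:**
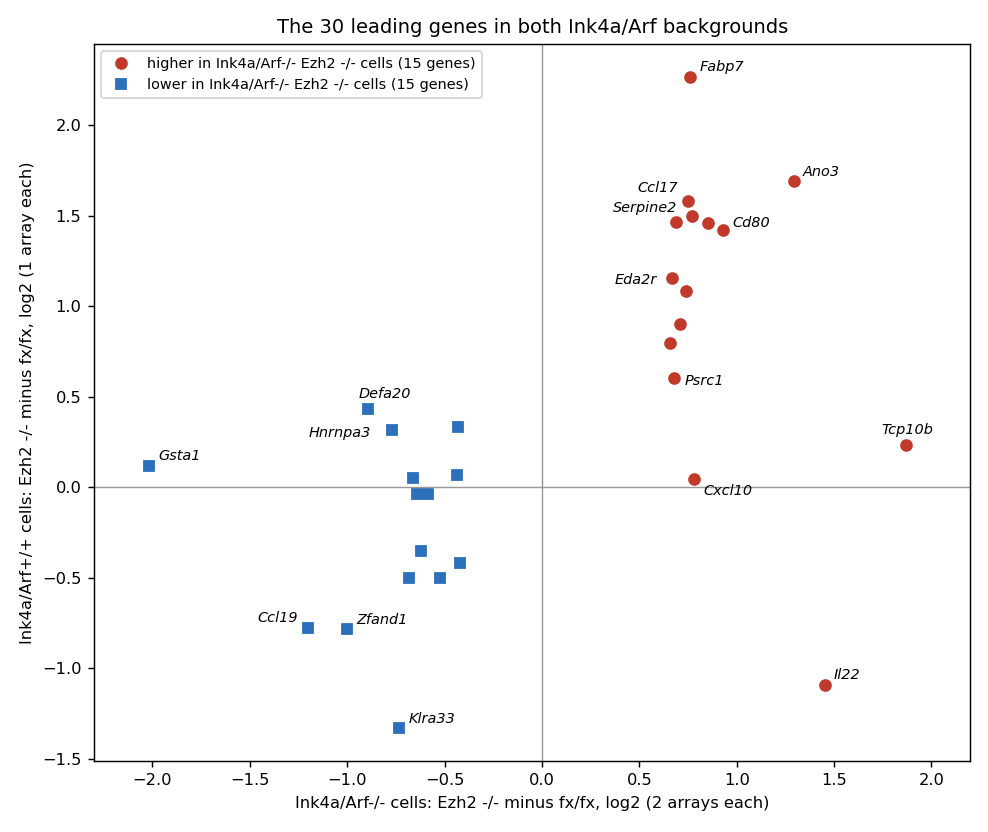
Ezh2 -/- minus Ezh2 fx/fx log2 difference of the 30 leading genes in Ink4a/Arf-/- cells (horizontal axis, 2 arrays per genotype) and in Ink4a/Arf+/+ cells (vertical axis, 1 array per genotype, no replicates). Red circles are the 15 higher genes and blue squares the 15 lower genes. Of the higher genes 14 lie above 0 on the vertical axis, and of the lower genes 9 lie below it.

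The same was seen over wider sets of probe sets. Of the 270 probe sets with an upward gap of at least 0.2, 215 (79.6%) were higher on the Ink4a/Arf+/+ array labelled Ezh2 -/-, with a median difference of 0.351. Of the 272 with a downward gap of at least 0.2, 205 (75.4%) were lower, with a median of -0.225. Above the median level the shares were 151 of 185 (81.6%) and 116 of 122 (95.1%), where 45.6% and 54% of all probe sets of that brightness were higher and lower. At any brightness and a gap of at least 0.5, they were 19 of 20 (95%) and 7 of 12 (58.3%), beside 50.1% and 48.1% of all probe sets. The downward share was thus smaller at the widest gaps. Probe sets of 1 gene are not independent, and these shares carry no test.

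Gene lists were then read by role, with 1 probe set per gene, the brightest. Over all 20723 genes, 39.6% were higher and 60.4% lower in Ezh2 -/- cells (56.9% and 43.1% without fx/fx replicate 1), 13.4% lay above fx/fx without overlap and 23.3% below it without overlap. At an unadjusted p below 0.05, 2.79% were higher and 3.74% lower. The median over all genes was -0.025, with 0.019 without fx/fx replicate 1 and -0.070 without fx/fx replicate 2, and list medians are to be read against these. No member of any list passed limma's adjusted threshold in that fit. Of 48 gene lists and 8 marker lists, 11 had a median at least 0.1 away from that of all genes, and leaving out 1 array changed this number to between 8 and 13. In bulk RNA, fewer cells in a given phase of the cycle and less RNA per cell cannot be told apart.

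Genes that build the mitotic apparatus were lower. The kinetochore is the protein plate that ties chromosomes to spindle fibres, and 28 of its 29 genes and checkpoint genes measured were lower, 24 of them without overlap, with a median of -0.192 (-0.226 without fx/fx replicate 1). The exception, Zw10, was higher by 0.09. Cenph, a protein of the inner kinetochore, read 8.27 and 8.18 in Ezh2 -/- cells and 8.65 and 8.70 in fx/fx cells, a difference of -0.45. Cenpq, of the same inner layer, read 8.56 and 8.64 in Ezh2 -/- cells and 8.94 on both fx/fx arrays. Both genes were named for their gap, so the separation of the 2 genotypes follows from the choice. All 39 measured spindle motors, mitotic kinases and cyclins were lower, 38 without overlap, with a median of -0.182 (-0.198 without fx/fx replicate 1). Top2a, which untangles DNA before chromosomes separate, read 11.21 on both Ezh2 -/- arrays and 11.53 and 11.52 in fx/fx cells. Ncapg, a subunit of condensin, read 9.92 and 9.86 in Ezh2 -/- cells and 10.16 and 10.28 in fx/fx cells. Kif18a, a motor that trims spindle fibres, differed by -0.28, and Incenp, the scaffold of the chromosomal passenger complex, by -0.26. At an unadjusted p below 0.05, 13 kinetochore and 16 spindle genes were lower. In Ink4a/Arf+/+ cells these medians were -0.447 and -0.547.

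Genes of the cell cycle's last phases often carry a CHR element, the letters TTTGAA, in their promoters, where the DREAM complex binds, and replication genes often carry E2F sites. RefSeq promoter windows (GRCm38.p6, 250 bases before to 50 after the start) were found for 59 of the 68 kinetochore and spindle genes and searched on both strands, and matches of different motifs could share bases. TTTGAA was in 39 of 65 of their windows (60%) and in 17.9% of all 32851 windows of that length. CCAAT was in 75.4% of them and in 37.4% of all windows. A match is a description of these letters and shows no binding. The windows of Top2a (chr11:99024140-99024439, minus strand) and Ncapg (chr5:45669675-45669974, plus strand) are shown because these genes had the widest gaps of the lists among those that hold TTTGAA, in capitals on either strand, 5′ to 3′ along the gene. The matches start 179 and 23 bases before the start of Top2a and 30 bases before that of Ncapg.
Top2a: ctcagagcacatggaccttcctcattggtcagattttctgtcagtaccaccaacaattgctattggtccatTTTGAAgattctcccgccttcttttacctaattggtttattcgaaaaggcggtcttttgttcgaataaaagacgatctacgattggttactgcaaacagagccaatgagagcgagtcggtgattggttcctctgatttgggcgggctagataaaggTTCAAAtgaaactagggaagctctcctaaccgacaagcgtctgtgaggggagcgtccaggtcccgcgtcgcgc
Ncapg: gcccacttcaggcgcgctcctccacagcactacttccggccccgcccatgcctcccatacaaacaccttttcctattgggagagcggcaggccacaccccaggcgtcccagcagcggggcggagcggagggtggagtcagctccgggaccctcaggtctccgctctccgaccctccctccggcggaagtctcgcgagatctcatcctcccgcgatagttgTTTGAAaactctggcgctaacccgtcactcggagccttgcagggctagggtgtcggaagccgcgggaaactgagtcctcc

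DNA replication genes were lower as well. Of the 23 origin licensing and firing genes 22 were lower, 20 without overlap, at a median of -0.154, and Orc4 at 0.01 was the exception. Of the 34 replication fork genes 31 were lower, 25 without overlap, at a median of -0.168. The 3 fork genes that were higher were Pcna, the sliding clamp, at 0.18 and the polymerase subunits Pold4 at 0.11 and Pole4 at 0.01, all with overlapping groups. Prim1, a subunit of the primase that starts each new strand, read 9.61 and 9.49 in Ezh2 -/- cells and 9.99 and 9.95 in fx/fx cells. Orc1, which marks replication origins, read 8.266 and 8.2025 in Ezh2 -/- cells and 8.574 and 8.596 in fx/fx cells. Prim1 and Orc1 were named for their gap, so their lack of overlap follows from the choice. Gins1, a helicase component, differed by -0.36, and Tipin, which steadies stalled forks, by -0.38. All 11 genes that supply deoxynucleotides were lower (median -0.139), and the thymidine kinase Tk1, at -0.29, had the widest gap. Without fx/fx replicate 1 the 3 medians were -0.156, -0.160 and -0.144. Of the 44 checkpoint and repair genes 42 were lower, 36 without overlap, and the median was -0.173 (-0.168 without fx/fx replicate 1). Fancf at 0.02 and Wrn at 0.03 were the exceptions.

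An E2F core was searched on either strand in 4 forms, TTCCCGC being the first form, TTCGCGC the next form, TTGCCGC another form and TTGGCGC the last form. It was in 33 of the 57 RefSeq windows found for the licensing and fork genes (57.9%), and in 9.57% of all windows. Windows were found for 47 of the 57 genes. Those of Prim1 (chr10:128014965-128015264, plus strand) and Orc1 (chr4:108579204-108579503, plus strand) are shown as the members with the widest gaps that hold it, with the core in capitals, 15 bases before the start in Prim1 and 27 bases before it, on the other strand, in Orc1.
Prim1: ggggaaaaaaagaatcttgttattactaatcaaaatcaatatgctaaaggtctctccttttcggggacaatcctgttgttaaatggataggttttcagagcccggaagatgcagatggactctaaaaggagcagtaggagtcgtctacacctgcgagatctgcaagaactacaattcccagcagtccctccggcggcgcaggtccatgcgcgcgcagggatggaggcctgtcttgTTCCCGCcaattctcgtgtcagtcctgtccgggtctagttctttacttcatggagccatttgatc
Orc1: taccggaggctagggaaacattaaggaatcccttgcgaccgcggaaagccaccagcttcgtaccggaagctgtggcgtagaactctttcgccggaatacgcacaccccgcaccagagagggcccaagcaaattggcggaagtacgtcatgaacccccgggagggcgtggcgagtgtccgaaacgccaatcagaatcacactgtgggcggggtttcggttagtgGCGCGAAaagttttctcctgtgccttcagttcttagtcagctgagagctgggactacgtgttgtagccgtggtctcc

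Lists that serve growing cells were lower by less. Ribosome biogenesis genes, which make and assemble ribosomal RNA in the nucleolus, showed 24 of 25 lower, 14 without overlap, at a median of -0.085 and of -0.084 without fx/fx replicate 1. The pseudouridine synthase Dkc1 differed by -0.19, and the nucleolar genes Nop14 and Nop58 both by -0.24. Rrp9, at 0.02, was the gene that was higher. The 76 cytosolic ribosomal protein genes, in contrast, stood near all genes, with a median of -0.013 and 29 higher, and 0.011 with 43 higher without fx/fx replicate 1. Their most distant member, Rps27a, read 11.73 and 11.64 in Ezh2 -/- cells and 10.71 and 11.44 in fx/fx cells, so fx/fx replicate 1 set most of its difference of 0.61 (0.25 without it), and its other probe sets differed by -0.63 to 0.00. The zinc finger cofactor and heterochromatin list, which includes high-mobility-group proteins and lamins, had a median of -0.112 with 15 of 17 lower (-0.093 without fx/fx replicate 1). There the nuclear lamina gene Lmnb1 read 9.73 and 9.72 in Ezh2 -/- cells and 10.05 and 10.01 in fx/fx cells. Chromatin modifiers had a median of -0.046 (-0.033 without fx/fx replicate 1), nearer to that of all genes. Of 24 there were 17 lower, 10 without overlap, and 7 higher, 2 without overlap. Hells, a remodelling enzyme of DNA methylation, differed by -0.30, the methyltransferase Suv39h2 by -0.20 and Uhrf1, the guide of maintenance methylation, by -0.20. Kdm5b, by contrast, was higher by 0.17 without overlap.

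p53 target genes were split by function. Those of arrest and feedback had a median of 0.083, with 12 of 19 higher and 10 without overlap (0.081 without fx/fx replicate 1). Cdkn1a, the CDK inhibitor induced by p53, read 12.92 and 12.88 in Ezh2 -/- cells and 12.43 and 12.47 in fx/fx cells. The antiproliferative gene Btg2 read 10.26 and 10.42 in Ezh2 -/- cells and 9.77 and 9.78 in fx/fx cells. Both were named for their gap, with differences of 0.45 and 0.57 (limma, adjusted p = 0.520 for each). The ubiquitin ligase Mdm2, which restrains p53, was higher by 0.25. Targets of cell death had a median of 0.068 with 10 of 15 higher and 6 without overlap, and of 0.091 without fx/fx replicate 1 but 0.0074 without replicate 2. Beside Eda2r these were led by the junction gene Perp at 0.36 and the death receptor Fas at 0.29, while the BH3 gene Pmaip1 was higher by 0.18 without overlap and the groups overlapped for the BH3 gene Bbc3. Targets of metabolism and repair stood near all genes, with a median of 0.011 and 6 of 12 higher (0.068 with 8 higher without fx/fx replicate 1), although Ddit4l, an inhibitor of mTOR, was higher by 0.57.

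Secreted growth regulators were higher. The insulin-like growth factor pathway consists of ligands, receptors, binding proteins that hold the ligand and pappalysins that cut the binding proteins. Its median was 0.096, with 16 of 19 higher and 10 without overlap (0.056 without fx/fx replicate 1). The ligand Igf1 read 9.19 and 9.21 in Ezh2 -/- cells and 8.78 and 8.84 in fx/fx cells. The binding protein Igfbp5 read 11.45 and 11.49 in Ezh2 -/- cells and 10.93 and 10.85 in fx/fx cells. Pappa, the pappalysin that frees the ligand, read 11.89 and 11.83 in Ezh2 -/- cells and 11.33 and 11.34 in fx/fx cells. Igf1, Igfbp5 and Pappa were named for their gap, so their lack of overlap follows from the choice. Igf2, by contrast, was level, at 12.56 on both Ezh2 -/- arrays and 12.54 and 12.52 in fx/fx cells, while it was higher by 1.53 with Ezh2 loss in Ink4a/Arf+/+ cells. The lower genes of the list were Igfbp6 at -0.14 and the RNA-binding proteins Igf2bp1 and Igf2bp2 at -0.04 each.

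TGF-beta and BMP pathway genes had a median of 0.078, with 38 of 45 higher and 24 without overlap (0.110 without fx/fx replicate 1). The ligand Tgfb2 read 11.33 and 11.27 in Ezh2 -/- cells and 10.94 and 10.95 in fx/fx cells. Grem1, a secreted antagonist of BMPs, read 12.27 and 12.26 in Ezh2 -/- cells and 11.77 and 11.87 in fx/fx cells. The activin subunit Inhbb at 0.36, the ligand Bmp5 at 0.35 and Id1, a target of BMP signalling, at 0.35 also showed no overlap. These genes, with Tgfb2 and Grem1, were named for their gap, so their lack of overlap follows from the choice. Genes that lay below fx/fx without overlap were Bmp2 at -0.16, Gdf5 at -0.10 and Smad2 at -0.04. Wnt pathway genes had a median of 0.030 with 28 of 45 higher, and 0.093 with 40 higher without fx/fx replicate 1, but -0.043 without fx/fx replicate 2. The Wnt enhancer Rspo3 was higher by 0.36, the receptor Fzd4 by 0.39 and the antagonist Sfrp1 by 0.27, and the related enhancer Rspo2 differed by -0.21.

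Cytokines and growth factors had a median of 0.053, with 31 of 40 higher and 18 without overlap, and of 0.109 with 35 higher without fx/fx replicate 1. Hgf, a ligand of the receptor Met, read 8.31 and 8.25 in Ezh2 -/- cells and 7.91 on both fx/fx arrays. Lif, the cytokine that was also added to the medium, was higher by 0.32, Il11 of the same receptor family by 0.33, the interleukin 1 antagonist Il1rn by 0.33 and Fgf2 by 0.36. Il6, at 4.43 and 4.81 in Ezh2 -/- cells and 4.60 and 4.36 in fx/fx cells, overlapped between the groups and stood at the 4.12th percentile of signal. Chemokine ligands had a median of 0.074 with 19 of 35 higher (0.104 with 27 higher without fx/fx replicate 1, -0.046 without replicate 2), beside a median of 0.181 between the 2 fx/fx replicates. After Cxcl10 and Ccl17 the widest gap was that of Ppbp, a neutrophil attractant, which read 10.86 and 10.91 in Ezh2 -/- cells and 10.43 and 10.41 in fx/fx cells. G-protein signalling regulators had a median of 0.014, which was 0.119 with 14 of 19 higher without fx/fx replicate 1 and -0.039 without replicate 2. Rgs5, close to Rgs4 in the genome, was higher by 0.61, with 9.80 and 9.63 in Ezh2 -/- cells and 9.13 and 9.08 in fx/fx cells.

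**Figure D3:**
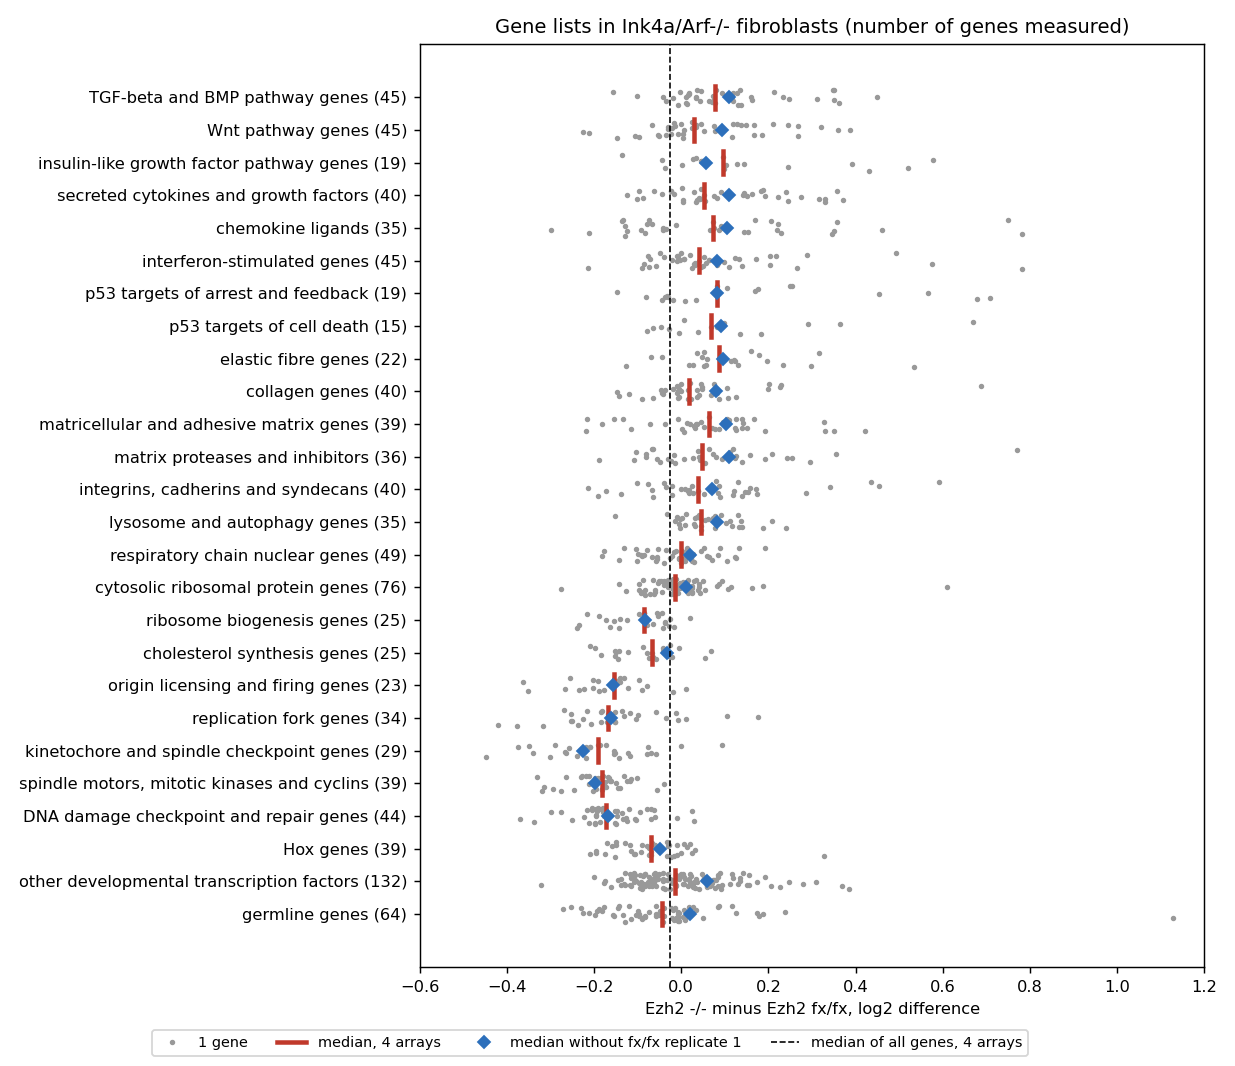
Ezh2 -/- minus Ezh2 fx/fx log2 difference in Ink4a/Arf-/- cells for each gene (grey points, 1 probe set per gene) of 26 lists, with the number of genes measured in brackets. Red bars are list medians over 4 arrays, blue diamonds medians without fx/fx replicate 1, and the dashed line the median of all genes at -0.025. The mitosis, replication and repair lists lie left of it with and without that array, and the TGF-beta, growth factor and elastic fibre lists right of it.

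Structural matrix genes of the elastic fibre were higher while the main fibroblast collagens were level. Eln, which encodes elastin, read 9.54 and 9.56 in Ezh2 -/- cells and 9.05 and 8.98 in fx/fx cells, a difference of 0.53 ± 0.07 (SE). Its list had a median of 0.087, with 19 of 22 higher and 15 without overlap (0.095 without fx/fx replicate 1). The latent TGF-beta binding protein Ltbp2 was higher by 0.31 and the fibulin Efemp1 by 0.30, both without overlap. Ltbp4 at -0.13, Emilin2 at -0.07 and Loxl4 at -0.04 were lower. Collagens had a median of 0.018 with 24 of 40 higher, which 1 array decided, since it was 0.080 with 34 higher without fx/fx replicate 1 and -0.046 without replicate 2. Col1a1 read 13.37 and 13.38 in both genotypes, and Col1a2 and Col3a1 also overlapped between them. Matricellular and adhesive matrix genes had a median of 0.065 with 30 of 39 higher and 20 without overlap (0.103 without fx/fx replicate 1), led by the laminin chain Lama2 at 0.42, the hyaluronan synthase Has2 at 0.33 and the CCN proteins Nov at 0.35 and Wisp2 at 0.33. Fibronectin, Fn1, overlapped between the groups. Proteases and inhibitors had a median of 0.048 (0.110 without fx/fx replicate 1, 0.033 without replicate 2). Of 36 there were 23 higher, 16 without overlap, and 13 lower, 4 without overlap. Beside Serpine2, the protease Adamts12 was higher by 0.35, the gelatinase Mmp9 by 0.30 and the inhibitor Timp3 by 0.24. The adhesion list had a median of 0.038 (0.071 without fx/fx replicate 1). Of its 40 genes 27 were higher, 17 without overlap, and 13 lower, 7 without overlap. Its widest gaps were those of the integrin chain Itga2 at 0.59, the cadherin Cdh6 at 0.44 and the integrin chains Itga1 at 0.34 and Itga11 at 0.29. The glypican Gpc4, at 0.45 (0.24 without fx/fx replicate 1), was also among them. Itga2 read 8.731 and 8.562 in Ezh2 -/- cells and 8.114 and 7.998 in fx/fx cells, so its groups did not overlap.

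Lysosome and autophagy genes had a median of 0.046, with 28 of 35 higher and 14 without overlap, 0.082 with 30 higher without fx/fx replicate 1, and 0.013 without replicate 2. The differences were small, led by the cathepsin Ctsf at 0.24, the proton pump subunit Atp6v0d1 at 0.21 and the cathepsin Ctsd at 0.19. In Ink4a/Arf+/+ cells 33 of the 35 were higher, beside 51% of all genes, with a median of 0.138. Imprinted genes had a median of 0.061, with 30 of 46 higher and 23 without overlap (0.091 with 36 higher without fx/fx replicate 1). Peg3, a paternally expressed zinc finger gene, read 10.11 and 10.12 in Ezh2 -/- cells and 9.62 and 9.68 in fx/fx cells. Its neighbour Zim1 was higher by 0.33, Mest by 0.32 and Peg10 by 0.29. Ephx1, a detoxifying hydrolase and NRF2 target, was higher by 0.47, while the NRF2 list as a whole had a median of -0.007 (0.035 without fx/fx replicate 1).

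Interferon-stimulated genes had a median of 0.040, with 30 of 45 higher and 14 without overlap, 0.081 with 34 higher without fx/fx replicate 1, and 0.012 without replicate 2. Ifi44 read 9.37 and 9.53 in Ezh2 -/- cells and 8.97 and 8.78 in fx/fx cells. Ifit1, which binds viral RNA, read 7.19 and 7.05 in Ezh2 -/- cells and 6.58 and 6.68 in fx/fx cells. The sensor relative Oasl2 was higher by 0.29. Those below fx/fx without overlap were Dhx58 at -0.21, Isg15 at -0.09 and Isg20 at -0.07, so widely used interferon genes stood on both sides. The interferon-stimulated response element, searched on both strands as a pair of GAAA with any 2 letters between them, was in 20 of the 40 RefSeq windows found for 33 of the genes (50%), and in 3.44% of all windows. The windows of Cxcl10 (chr5:92348840-92349139, minus strand) and Ifit1 (chr19:34640639-34640938, plus strand) hold it, in capitals, 213 bases before the start of Cxcl10 and, on the other strand, 104 and 85 bases before that of Ifit1.
Cxcl10: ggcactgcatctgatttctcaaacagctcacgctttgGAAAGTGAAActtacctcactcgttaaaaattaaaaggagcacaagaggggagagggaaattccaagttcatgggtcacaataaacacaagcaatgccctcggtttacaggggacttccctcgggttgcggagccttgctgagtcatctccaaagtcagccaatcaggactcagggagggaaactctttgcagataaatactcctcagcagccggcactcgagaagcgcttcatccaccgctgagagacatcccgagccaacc
Ifit1: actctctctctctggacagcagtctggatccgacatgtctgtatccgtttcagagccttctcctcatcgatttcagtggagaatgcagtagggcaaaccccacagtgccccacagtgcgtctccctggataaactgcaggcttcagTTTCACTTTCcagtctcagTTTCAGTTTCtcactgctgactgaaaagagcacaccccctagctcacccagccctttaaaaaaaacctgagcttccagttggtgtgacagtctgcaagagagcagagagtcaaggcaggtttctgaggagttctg

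Several lists moved with the choice of fx/fx replicate. Costimulatory ligands were higher in 10 of 17 with all arrays and in 17 of 17 without fx/fx replicate 1, and their median between the fx/fx replicates, 0.243, exceeded the median of 0.034 between genotypes (0.125 without fx/fx replicate 1, -0.116 without replicate 2). Of that list 5 of 17 lay above fx/fx without overlap, beside 13.4% of all genes. They were Cd80, the receptor ligand Pvr at 0.17, Tnfsf18 at 0.26, Cd276 at 0.11 and Vcam1 at 0.09. Their direction did not rest on fx/fx replicate 1. Germline genes were lower in 47 of 64 with it and in 26 without it, and their median changed sign, at -0.045 and 0.020. The most distant of them, Pramel3, read 5.83 and 4.90 in Ezh2 -/- cells and 2.77 and 5.72 in fx/fx cells, so a single low array set its difference of 1.13. Tex15 at 0.19, Asz1 at 0.18 and Bmp15 at 0.17 were the 3 of 64 that lay above fx/fx without overlap, beside 13.4% of all genes. Below it without overlap lay 12, among them Ddx4 at -0.27 and Tuba3a at -0.16, beside 23.3% of all genes. Developmental transcription factors outside Hox were lower in 74 of 132 with it and in 42 without it, with medians of -0.014 and 0.060. Within them the cofactors Eya1 at 0.38 and Eya4 at 0.31 and the endoderm and heart factor Gata6 at 0.37 were higher without overlap. Cholesterol synthesis genes were lower in 23 of 25 with it and in 15 without it, with medians of -0.066 and -0.032, and their SRE letters, TCACNCCAC, were found in 1 of 20 windows (5%), beside 1.24% of all windows.

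Hox genes, which set position along the body axis and are well-known targets of Polycomb silencing, were lower in 33 of 39 with all arrays and in 25 without fx/fx replicate 1, with medians of -0.070 and -0.049. The median between the fx/fx replicates was 0.091. Hoxc10 read 8.55 and 8.44 in Ezh2 -/- cells and 8.71 and 8.68 in fx/fx cells. The Hox list of the Ink4a/Arf+/+ cells stood on the other side, with 37 of 39 higher and a median of 0.483. That background has 1 array per genotype, so its values have no replicate check. Levels of the 2 tables are not compared with each other.

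**Figure D4:**
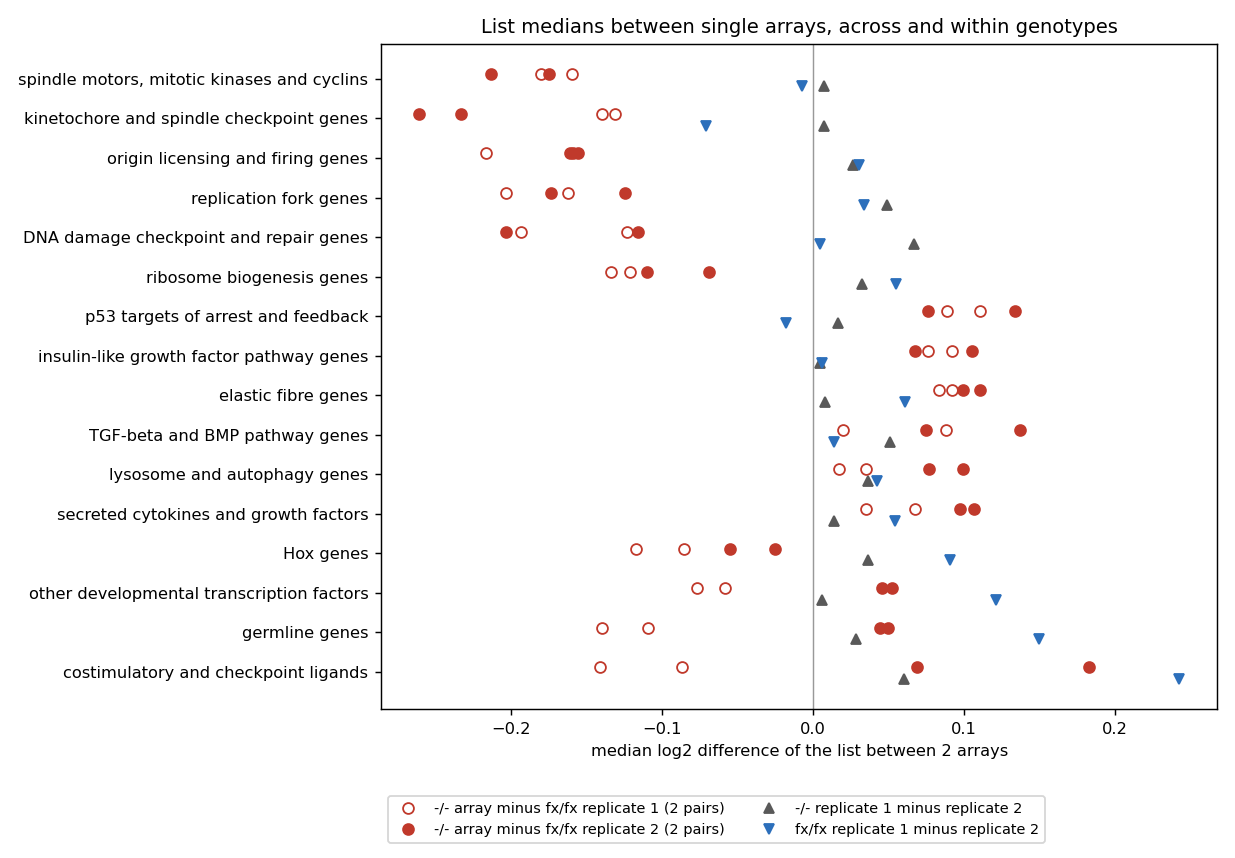
Median log2 difference of 16 gene lists between single arrays. Open red circles are Ezh2 -/- arrays minus fx/fx replicate 1, filled red circles Ezh2 -/- arrays minus fx/fx replicate 2, and triangles the differences within a genotype (grey for Ezh2 -/-, blue for fx/fx). The mitosis, replication and repair lists keep all 4 red circles left of both triangles, while for the transcription factor, germline and costimulatory lists the open circles lie left of 0 and the filled ones right of it.

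The cell type of the arrays was checked against marker genes, by rank of signal within the arrays. All 13 fibroblast markers ranked between the 73.3rd percentile, for Twist1, and the 99.95th, for Vim, and their median difference was 0.012. Their summed signal on the linear scale was 97340 and 99170 in Ezh2 -/- cells and 95350 and 97330 in fx/fx cells. Defining genes of other cells ranked low, with the leukocyte gene Ptprc at the 29.7th percentile, the endothelial genes Pecam1 and Cdh5 at the 30.3rd and 33.4th, the epithelial gene Epcam at the 24.3rd and the stem cell gene Pou5f1 at the 17.6th. Markers above the 50th were 3 of 10 for macrophages and leukocytes, 3 of 8 epithelial, 2 of 6 neuronal and 1 of 8 for skeletal muscle. Among them were Lyz2, a lysozyme of macrophages, at the 85.5th and Stmn2, a neuronal tubulin regulator, at the 92.2nd. The endothelial, stem cell and erythroid lists held none. Summed signal of the 10 macrophage and leukocyte markers was 3934 and 4167 in Ezh2 -/- cells and 4454 and 3485 in fx/fx cells, so the genotypes overlapped. Erythroid markers summed to 575.6 and 577.2 in Ezh2 -/- cells and 694.8 and 618 in fx/fx cells. There Hbb-b1, a globin chain, read 3.94 and 3.89 in Ezh2 -/- cells and 6.02 and 4.31 in fx/fx cells, highest on the array that stood apart. Their part in the results was not tested.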

How the data were processed

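The arrays were hybridised with biotin-labelled cDNA from total RNA, per the labels' protocols. The authors deposited log2 levels in 2 tables, 1 per Ink4a/Arf background. Their normalization and genome build are not given here, and the submitters' processing notes name limma. A value table of the same arrays was identical (largest difference 0). The authors' fold changes and p-values were not used.

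Limma 3.58.1 (R 4.3.3), tested on simulated data, was fitted to 4 arrays with 2 residual degrees of freedom. P-values are two-sided and Benjamini-Hochberg adjusted over 23346 probe sets. Leading genes, 15 per direction, exclude unnamed predicted genes, small RNAs and olfactory and vomeronasal receptors. Of each list up to 5 members with the widest gap and the members behind counts of 5 or fewer were named by rule, and further members were picked with their values known. The genes and lists were chosen with earlier results of these data known. Some named members are not reported here. Lists use a gene's brightest probe set, and 20 listed genes were not found. Equal replicate numbers did not pair the arrays (correlation of deviations 0.0264). Alternatives were each array left out, the replicate number as a block, all 6 arrays, quantile normalization, a filter on dim probe sets, a variance trend, a robust fit, array weights and the median over a gene's probe sets.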

Additional observations from a re-analysis of the deposited data

Results flagged for a closer look

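The Ezh2 difference in Ink4a/Arf-/- cells was set against that in Ink4a/Arf+/+ cells for the genes named, in a limma fit over all 6 arrays, which takes the spread of the lone Ink4a/Arf+/+ arrays to be that of the Ink4a/Arf-/- replicates. The Ink4a/Arf+/+ difference itself has no replicate check, so the calls describe these arrays and do not show that the backgrounds differ. At a Benjamini-Hochberg adjusted p below 0.05, 95 of 23346 probe sets (0.407%) passed, and 11 genes named or listed were among them (limma, adjusted p between 0.00581 and 0.0497).

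In 6 of these genes the difference was higher than 0 in both backgrounds and smaller where Ink4a/Arf is missing. The gap between backgrounds was -1.507 for Fabp7 (0.76 in Ink4a/Arf-/- and 2.27 in Ink4a/Arf+/+ cells), -1.302 for Eln (0.53 and 1.84), -1.752 for the G-protein regulator Rgs5 (0.61 and 2.36), -1.918 for the pappalysin Pappa2 (0.24 and 2.16), -1.177 for the collagenase Mmp13 (0.25 and 1.43) and -1.051 for the homeobox gene Dlx5 (0.21 and 1.26).

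The 3 Hox genes had opposite signs in these arrays. Hoxc10 had a gap of -1.611 (-0.20 and 1.42), Hoxb9 of -1.419 (-0.17 and 1.24) and Hoxc5 of -1.021 (-0.15 and 0.87). All 3 were lower without overlap in Ezh2 -/- cells lacking Ink4a/Arf and higher in the Ezh2 -/- array with it.

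The 2 genes with a positive gap were the chemokine Ppbp, at 3.393 (0.46 and -2.93), and the neuronal gene Stmn2, at 1.827 (-0.13 and -1.96). Ppbp read 10.86 and 10.91 in Ezh2 -/- and 10.43 and 10.41 in fx/fx cells lacking Ink4a/Arf, and 9.57 in the Ezh2 -/- and 12.50 in the fx/fx array with it.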

How the results depend on the processing

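Leaving out 1 array in turn moved the number of probe sets called by limma (adjusted p below 0.05) between 0 and 13: it was 13 without fx/fx replicate 2, 5 without Ezh2 -/- replicate 2, and 0 without either other array. At an unadjusted p below 0.05 the count of higher probe sets then lay between 235 and 1573 and that of lower ones between 388 and 3095, and with 3 arrays the count without overlap lay between 4666 and 9712 higher and between 7406 and 13690 lower. Lists at least 0.1 from all genes numbered 8 to 13. A filter that dropped 30% of probe sets, the dimmest, called 4, namely Cd80, Cxcl10, Fabp7 and Serpine2 (limma, adjusted p = 0.0494), and a variance trend called 38, 35 higher and 3 lower. Quantile normalization called 0, with 1178 higher and 939 lower at an unadjusted p below 0.05, and 4631 higher and 4688 lower without overlap, so the excess of lower probe sets was not seen under it. The robust fit and array weights also called 0. The weights were equal for both arrays of a genotype (1.561 for Ezh2 -/- and 0.6405 for fx/fx), so they could not single out fx/fx replicate 1. The 6-array fit repeats the 4-array fit here, since its lone Ink4a/Arf+/+ arrays add no spread, so it is no separate check. With the replicate number as a block, which does not pair these arrays, 0 were called, and 619 higher and 976 lower probe sets had an unadjusted p below 0.05. No difference of the 32 genes named for Ezh2, Cdkn2a or their gap changed sign under quantile normalization. Leaving out 1 array cannot turn the sign where groups do not overlap, so it tested the sign only for Cdkn2a, which kept it. The block and the value table of the same arrays leave every difference as it was, so they test no sign. These were the settings run gene by gene. Ano3 and Gsta1 passed without fx/fx replicate 2, and Tcp10b, Il22 and Ccl19 without Ezh2 -/- replicate 2, where the lone array is assumed to vary like the others. The cause of these changes was not tested. Leaving out 1 array moved the difference by over 1.5 times for Cdkn2a, Il22 and Ccl19, which lay between -0.14 and -0.02, between 0.96 and 1.95, and between -1.63 and -0.77. With 2 arrays per genotype and no details of normalization, differences near 0.1 in single genes cannot be told from the spread between replicates.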
